A study of Homo sapiens with 6 samples.

Results

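Ribosome biogenesis and nucleolar genes were followed in BCP1, BCBL1 and BC1, human lines of primary effusion lymphoma, with 3-AP or with vehicle. The set was chosen by gene symbol and holds 40 genes for nucleolar proteins, rRNA processing factors and RNA polymerase I subunits, out of 14627 array features that passed a filter on dim probes. Of the 40 genes, 38 had a probe with that symbol and 36 passed the filter, all 36 of them detected on all 6 arrays. WDR43 and GNL3 had no probe annotated to them here. The single NPM1 probe, designed on one transcript variant of nucleophosmin, was detected on 0 arrays. The single probe of POLR1A, the largest polymerase I subunit, was detected on 2 and was left out.

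Each line was cultured with 3-AP (triapine, an inhibitor of ribonucleotide reductase) at 2.5 µM for 48 h or with vehicle control, and its RNA was measured on Illumina bead arrays, 1 array per line and agent. This gave 3 arrays with 3-AP and 3 with vehicle. This lymphoma arises from B cells, carries Kaposi sarcoma-associated herpesvirus and has lost much of the B cell programme. With 1 sample per line and agent, the p-value for 3-AP against vehicle weighs the mean change against its variation over 3 lines. No p-value here rests on replicate samples of the same line and agent.

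BCP1 and BCBL1 gave much the same profile. Their vehicle arrays correlated at 0.99 across 14627 features (Pearson), against 0.92 for BCP1 with BC1 and 0.91 for BCBL1 with BC1. In the non-normalized table, the columns named for BCP1 also repeated the processed values of BCBL1. On the vehicle arrays 11 features differed at least 4-fold between BCP1 and BCBL1. For BC1 the counts were 620 against BCP1 and 666 against BCBL1. Whether the BCP1 and BCBL1 pairs are independent of each other was not tested, and n = 3 pairs takes them as such. Results are therefore given by line, and with and without BC1. Of 12 plasma cell markers, 7 were detected throughout, such as SDC1, PRDM1 and IRF4, and 3 on no array (JCHAIN, POU2AF1 and CD27). Among 10 markers of mature B cells, 6 were not detected on any array, PAX5 included, and 0 were found on all 6, while CD79A and CD79B reached 4 arrays. Among 12 for T and NK cells, 7 were not detected on any array, CD3D and CD3E included, and 0 were found on all 6, while CD2 reached 4 arrays. Of 11 myeloid markers, 1 (LYZ) was detected on all 6 and 4 on none.

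Ribosomes are built in the nucleolus, where polymerase I transcribes the precursor rRNA. Guide RNAs in box C/D and box H/ACA particles direct its methylation and pseudouridylation, the small subunit processome and the large subunit assembly factors fold and cut it, and ribosomal proteins are added. Many of these genes are known targets of the transcription factor MYC, which with its partner MAX binds the E-box CACGTG. MYC itself fell by 1.37 on the log2 scale with 3-AP (SE 0.14, n = 3 pairs, limma adjusted p = 0.0476). That call was lost in 7 of 13 alternatives, which include leaving out any 1 line, over which the limma adjusted p ranged between 0.000630 and 0.151. Taken line by line, the log2 fold change of MYC was -1.60 (BC1), -1.24 (BCBL1) and -1.27 (BCP1). The matching medians over the 36 measured genes were -0.85, -0.27 and -0.21, so the lines differed less for MYC in proportion to its fall. Whether the changes of these genes are linked to that of MYC was not tested.

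The sequences around CACGTG are shown because this motif, which played no part in choosing the genes, stands in many of their promoters. RefSeq promoter windows (GRCh38.p14, 250 bases before to 50 bases after a gene's start) were found for 34 of the 40 genes. The motif, a palindrome and so the same on both strands, was in a window of 16 of these 34 genes (47.1%), against 8.77% of 27305 genes with a window. Base composition was not matched in this comparison, and a match is not a binding site. The 30 bases centred on it are printed for the first 6 measured genes with a match, in order of raw p for 3-AP against vehicle, with the motif in capitals, 5′ to 3′ on the gene's strand. The pair of NOP10 matches is added for contrast and was chosen after the values were seen.
RCL1: cctgttccaaacCACGTGgacgcgtctggg
FBL: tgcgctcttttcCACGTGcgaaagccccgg
UTP20: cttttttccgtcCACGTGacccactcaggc
GAR1: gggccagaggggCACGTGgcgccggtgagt
DDX21: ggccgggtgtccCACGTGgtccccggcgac
RRP9: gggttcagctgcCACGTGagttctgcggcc
NOP10, distal: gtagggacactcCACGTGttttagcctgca
NOP10, proximal: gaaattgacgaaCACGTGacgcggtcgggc

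These stretches lie at chr9:4792936-4792965 (plus strand, RCL1), chr19:39846356-39846385 (minus, FBL), chr12:101280083-101280112 (plus, UTP20) and chr4:109815781-109815810 (plus, GAR1). The others lie at chr10:68956604-68956633 (plus, DDX21), chr3:51941892-51941921 (minus, RRP9), chr15:34343289-34343318 (minus, NOP10 distal) and chr15:34343130-34343159 (minus, NOP10 proximal). In FBL the motif began at position 7 downstream of the start and in UTP20 10 bases upstream of it. Over the 14 measured genes with a match, 12 of 15 matches began within 50 bases of the start. The window ended 50 bases after the start, so the 8 matches downstream of it lie within that distance by construction. The start is that of the promoter window. For some genes, such as DDX21, GAR1, PES1 and BYSL, it lay inside the annotated gene.

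Genes with and without the motif were set side by side, with no test. The 14 measured genes with it had a median log2 fold change of -0.47, and the 16 measured genes with a window and no match had -0.43. NOP10, with 2 matches, was among the genes that were not lower with 3-AP.

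The first comparison set 3-AP against vehicle in the same line. Most genes were modestly lower with 3-AP, and more so in BC1 than in the other lines. The log2 fold change was negative for 34 of 36 genes (94.4%, against 51.2% of all features) and positive for WDR74 and NOP10. Its median was -0.46, against -0.01 over all 14627 features. In all 3 lines 30 of 36 genes (83.3%) were lower, against 25.1% of all features. No gene of the set passed the limma test adjusted over all features, where 0.342% of features passed (0.0957% lower), and the smallest adjusted p was 0.0869. At a raw p under 0.05, 15 of 36 genes (41.7%) were lower and 0 higher, against 12.2% and 11.8% of all features. The 3 arrays with 3-AP all lay below the 3 with vehicle for 13 of 36 genes (36.1%), against 10.0% of all features. In the processed table as deposited, without background subtraction, 5 genes passed and all 5 were lower (13.9%, against 3.76% of all features lower and 4.09% higher). These were NCL, RCL1, DKC1, FBL and NOP56. Quantile normalization fixes the total signal, so a change of all RNA per cell cannot be seen here. Fewer cells of a type and less RNA per cell cannot be told apart in bulk RNA.

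**Figure D1:**
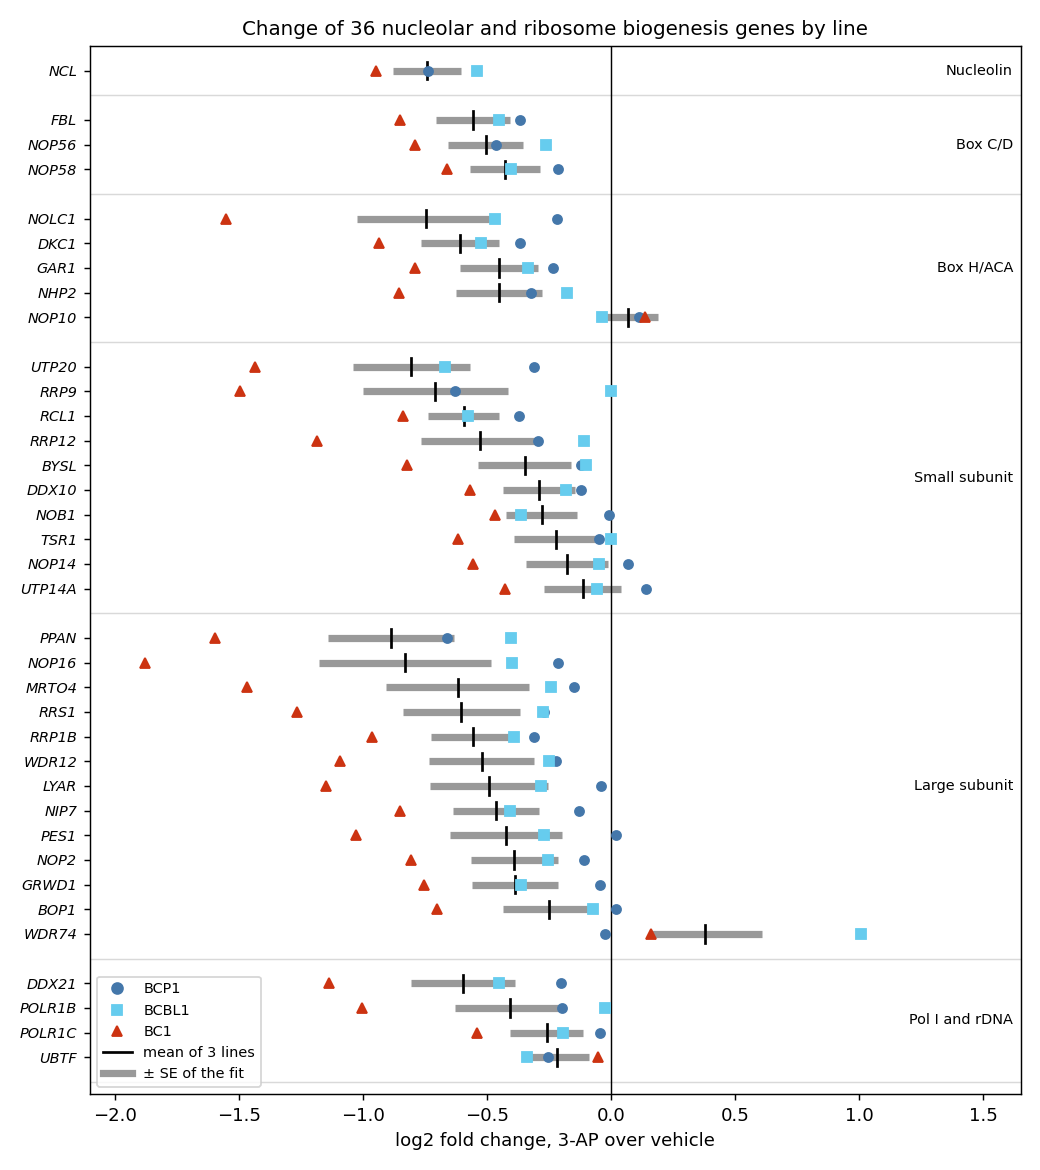
Log2 fold change of 3-AP over vehicle for the 36 measured genes, grouped by role, with 1 symbol per line, a black tick for the mean of the 3 lines and a grey bar for ± its SE. BC1 (triangles) is the most negative line in 33 of 36 genes, and NOP10 and WDR74 have means above 0.

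NCL, which encodes nucleolin, the abundant RNA-binding protein of the nucleolus, had the smallest raw p. Its log2 signals were 12.41 in BCP1, 12.65 in BCBL1 and 12.71 in BC1 with 3-AP, against 13.15, 13.19 and 13.66 with vehicle. Every 3-AP array lay below every vehicle array. The log2 fold change was -0.74 ± 0.14 (SE, n = 3 pairs, limma adjusted p = 0.0869), or 1.67-fold lower. In the deposited table it fell by 0.72 (limma adjusted p = 0.0110). The other NCL probe that passed the filter also gave -0.74.

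The set holds 3 genes for core proteins of box C/D particles, which guide rRNA methylation. All 3 were lower in every line, and all 3 at a raw p under 0.05, against 12.2% of all features. Fibrillarin (FBL), the methyltransferase, had log2 signals of 11.85, 11.61 and 11.32 with 3-AP in BCP1, BCBL1 and BC1, against 12.22, 12.06 and 12.17 with vehicle. Its groups did not overlap, and the log2 fold change was -0.56 ± 0.15 (SE, adjusted p = 0.130). NOP56, a scaffold protein of the particle whose introns carry snoRNAs, had 11.75, 11.88 and 11.47 with 3-AP, against 12.21, 12.14 and 12.26 with vehicle. The groups were again apart, with a log2 fold change of -0.51 ± 0.15. NOP58, the paralogous scaffold protein, had 11.37, 11.11 and 10.58 with 3-AP, against 11.58, 11.51 and 11.24 with vehicle, so its groups overlapped between lines. Its log2 fold change was -0.43 ± 0.14 (adjusted p = 0.168). FBL and NOP56 fell in the deposited table, by 0.54 (limma adjusted p = 0.0319) and 0.49 (limma adjusted p = 0.0425).

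Box H/ACA particles guide pseudouridylation, and their genes in the set were grouped here with NOLC1, a chaperone gene. Of these 5 genes, 4 were lower at a raw p under 0.05 (80%, against 12.2% of all features). The smallest subunit, NOP10, was not. Dyskerin (DKC1), the pseudouridine synthase, had log2 signals of 12.14, 11.92 and 11.46 with 3-AP in BCP1, BCBL1 and BC1, against 12.51, 12.44 and 12.40 with vehicle. The groups did not overlap, the log2 fold change was -0.61 ± 0.16 (SE, adjusted p = 0.125), and in the deposited table DKC1 fell by 0.60 (limma adjusted p = 0.0315). GAR1 had 12.51, 12.47 and 11.32 with 3-AP, against 12.74, 12.80 and 12.11 with vehicle, a log2 fold change of -0.45 ± 0.16, and its 3 other kept probes gave -0.43 to -0.59. For NHP2 the log2 fold change was -0.45 ± 0.17. NOP10 had 13.56, 13.40 and 13.17 with 3-AP, against 13.45, 13.44 and 13.03 with vehicle. Its log2 fold change was 0.07 ± 0.12 (adjusted p = 0.751), and the other NOP10 probe gave 0.09. NOLC1, a chaperone of snoRNA particles, had 9.65, 9.43 and 8.59 with 3-AP, against 9.87, 9.89 and 10.14 with vehicle. Its log2 fold changes were -0.22 in BCP1, -0.47 in BCBL1 and -1.55 in BC1, so BC1 lay far from the others.

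**Figure D2:**
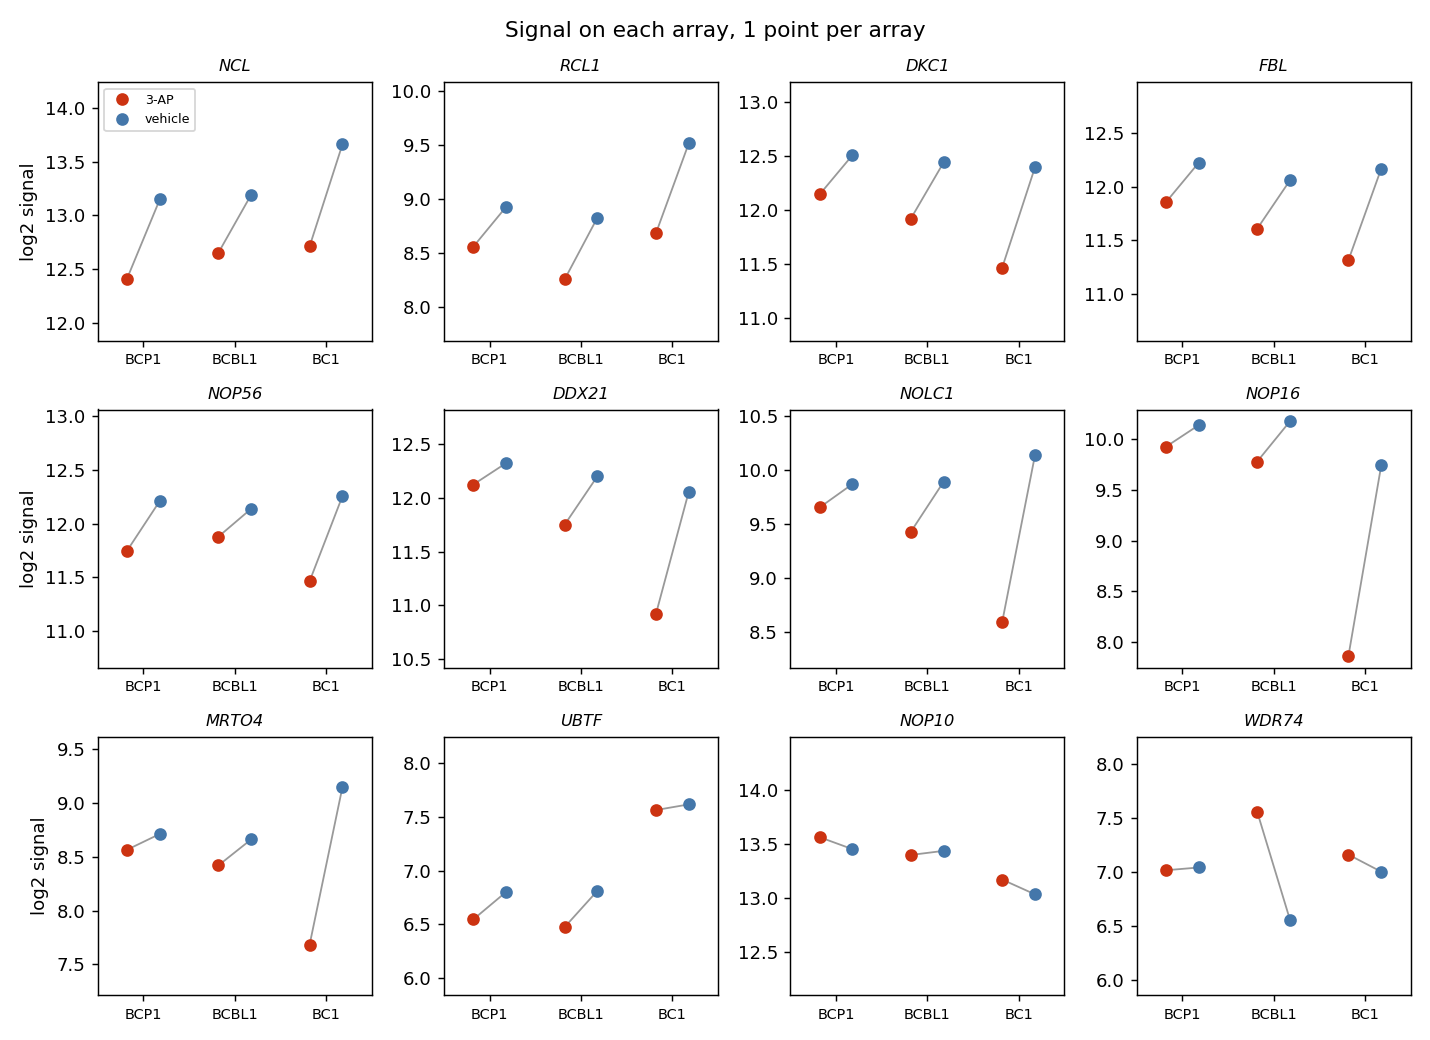
Log2 signal of 12 genes on each of the 6 arrays, by line, with 3-AP (red) left of vehicle (blue) and a line joining the 2 arrays of a line. NCL, DKC1 and FBL are lower with 3-AP in all 3 lines, NOLC1, NOP16 and MRTO4 differ most in BC1, and NOP10 differs little in any.

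For the 10 measured small subunit factors, all 10 negative (against 51.2% of all features), the median log2 fold change was -0.32. RCL1 and UTP20 were lower at a raw p under 0.05 (20%, against 12.2% of all features). RCL1, a processome factor related to RNA cyclases, had 8.56, 8.25 and 8.68 with 3-AP in BCP1, BCBL1 and BC1, against 8.93, 8.83 and 9.52 with vehicle. Its groups did not overlap, its log2 fold change was -0.59 ± 0.14 (SE, adjusted p = 0.113), and in the deposited table it fell by 0.47 (limma adjusted p = 0.0364). UTP20, a large scaffold protein of the processome, had 7.21, 7.09 and 6.17 with 3-AP, against 7.52, 7.76 and 7.61 with vehicle. The groups were apart and the log2 fold change was -0.80 ± 0.24, but it was -0.43 in the deposited table. RRP9, a protein of the U3 snoRNA particle, had 5.71, 6.11 and 5.27 with 3-AP, against 6.34, 6.12 and 6.77 with vehicle. The BCBL1 pair hardly differed, while the log2 fold change was -1.50 in BC1. For this dim probe the deposited table gave -0.54 in BC1 and -0.26 in the mean over lines. At the other end, NOP14 had 9.99, 9.75 and 8.96 with 3-AP, against 9.92, 9.79 and 9.52 with vehicle, and UTP14A had 10.06, 9.99 and 9.15, against 9.92, 10.04 and 9.58. For both processome genes the direction differed between BCP1 and BC1 with these probes, but the other NOP14 probe had a log2 fold change of -0.37 in BCP1. The log2 fold changes of RRP12, BYSL, DDX10, NOB1 and TSR1 lay between -0.53 and -0.22.

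For the 13 measured large subunit and other nucleolar factors the median log2 fold change was -0.49. Of these, 12 were negative (92.3%, against 51.2% of all features). PPAN, an assembly factor of the large subunit, had log2 signals of 6.69, 7.09 and 5.27 with 3-AP in BCP1, BCBL1 and BC1, against 7.35, 7.50 and 6.87 with vehicle, and the groups overlapped between lines. Its log2 fold change was -0.89 ± 0.25 (SE, adjusted p = 0.139), the most negative of the set, and -0.38 in the deposited table. RRP1B had 8.29, 8.08 and 7.77 with 3-AP, against 8.60, 8.47 and 8.73 with vehicle, and its groups did not overlap (log2 fold change -0.55 ± 0.17). NOP16 had 9.92, 9.78 and 7.86 with 3-AP, against 10.14, 10.17 and 9.74 with vehicle. MRTO4, which resembles a stalk protein of the large subunit, had 8.57, 8.42 and 7.68 with 3-AP, against 8.71, 8.66 and 9.15 with vehicle. For both genes the BC1 pair was much wider apart than the other pairs, with log2 fold changes of -1.88 and -1.47. The 3 subunits of the PES1 complex, PES1, BOP1 and WDR12, had log2 fold changes of -0.42, -0.25 and -0.52. RRS1 and LYAR had -0.60 and -0.49, and NIP7, NOP2 and GRWD1 had -0.46, -0.39 and -0.39. WDR74 had 7.02, 7.56 and 7.16 with 3-AP, against 7.04, 6.55 and 7.0 with vehicle. Its positive log2 fold change of 0.38 ± 0.23 (adjusted p = 0.361) came mainly from BCBL1, at 1.01. In the deposited table it was 0.19, with 0.50 in BCBL1.

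Genes of polymerase I transcription were negative in all 3 lines for 4 of 4 measured genes by their brightest probes, against 25.1% of all features. DDX21, a helicase of polymerase I transcription and rRNA processing, had 12.12, 11.75 and 10.92 with 3-AP in BCP1, BCBL1 and BC1, against 12.32, 12.20 and 12.06 with vehicle. Its 3-AP array in BCP1 lay above the vehicle array in BC1, so the groups overlapped (log2 fold change -0.60 ± 0.21, SE, adjusted p = 0.179). The subunit genes POLR1B and POLR1C had log2 fold changes of -0.41 ± 0.22 and -0.26 ± 0.15. UBTF, the upstream binding factor of rDNA, had -0.22 ± 0.13, and of the 36 genes it and 2 others, NOP10 and WDR74, were not most negative in BC1. The other kept UBTF probe gave -0.07, with 0.01 in BC1, so among kept probes the negative sign of UBTF in BC1 rests on 1. The dim POLR1A probe gave -0.77, -0.64 and -0.74 in BCP1, BCBL1 and BC1 after background subtraction, but -0.26, -0.26 and -0.23 in the deposited table.

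Several probes per gene gave a check within the arrays. For 15 genes more than 1 probe passed the filter, and in the mean over lines all 21 further probes had the sign of the brightest probe. The absolute difference in log2 fold change had a median of 0.06 and was 0.37 at most, for TSR1. Of the 21 further probes, 18 were also most negative in BC1. These probes share the same RNA and arrays and are no replicates of the treatment.

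**Figure D3:**
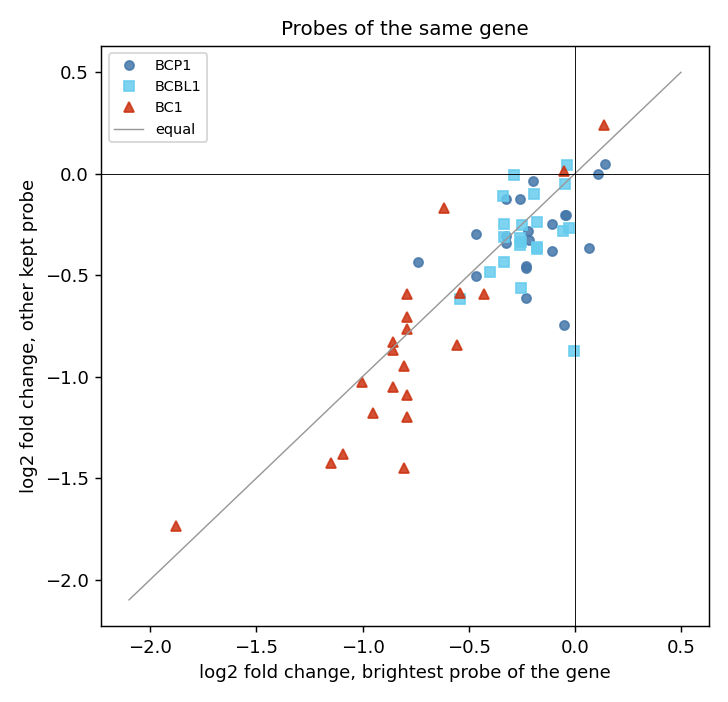
Log2 fold change (3-AP over vehicle) of the 21 further kept probes, vertical axis, against that of the brightest probe of the same gene, horizontal axis, with 1 symbol per line and a grey line where both are equal. Most BC1 points lie lowest on both axes, down to -1.88 for the brightest probe of NOP16.

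The second comparison asked whether the response differed in BC1. Over the 36 genes the median log2 fold change reached -0.85 in BC1, against -0.27 in BCBL1 and -0.21 in BCP1, while the medians over all features lay between -0.01 and 0.00. At least 2-fold lower in BC1 were 13 of 36 genes (36.1%), against 3.76% of all features, and 6 genes in the deposited table, against 0.964% of all features. In BCBL1 and in BCP1 there were 0 of 36, against 1.51% and 1.20% of all features. These counts rest on 1 array against 1 per line and have no replicate check. BC1 was the most negative line for 33 of 36 genes (91.7%), against 38.6% of all features. Across the 36 genes the changes correlated at 0.38 between BCP1 and BCBL1, and BC1 correlated at 0.49 with each of them (Pearson), against 0.60 for BCP1 with BCBL1, 0.42 for BCP1 with BC1 and 0.45 for BCBL1 with BC1 over all features. Spearman's rho over the 36 genes ordered the pairs otherwise, at 0.49 for BCP1 with BCBL1, 0.52 for BCP1 with BC1 and 0.37 for BCBL1 with BC1. Genes are not independent replicates, and the 2 arrays of a line share their normalization.

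**Figure D4:**
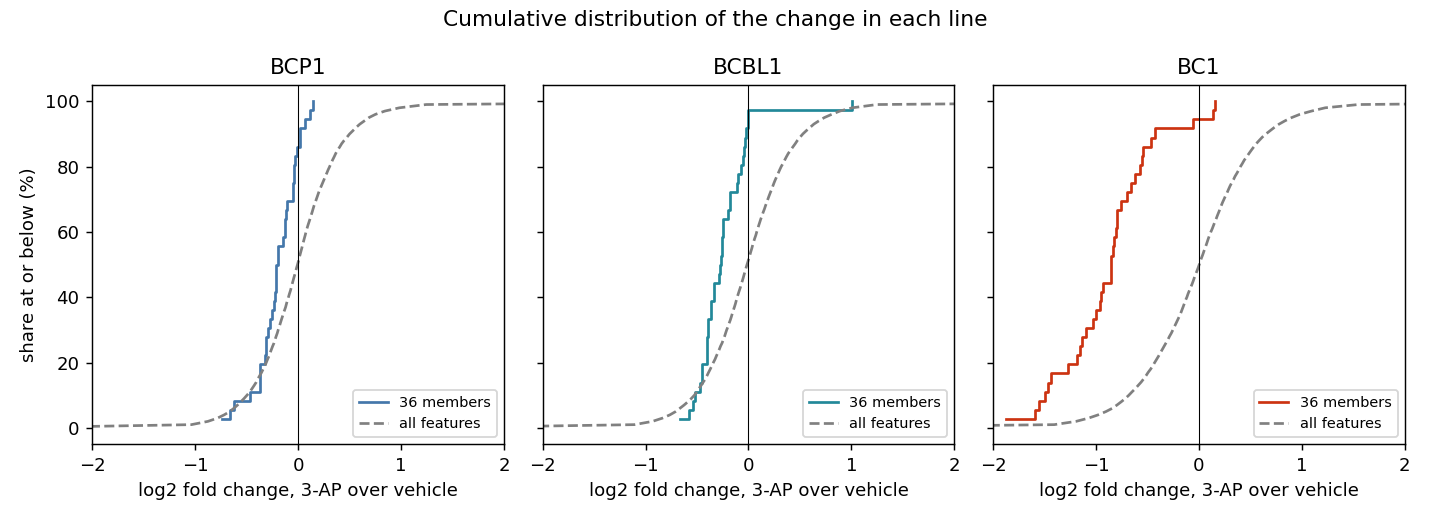
Cumulative share of genes (percent, vertical axis) at or below a log2 fold change of 3-AP over vehicle (horizontal axis), in 1 panel per line, for the 36 genes (solid) and all features (dashed). The solid curve is shifted furthest to the left in BC1, where its median is -0.85, against -0.27 in BCBL1 and -0.21 in BCP1.

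The limma test of BC1 against the mean of the other 2 responses had 1 residual degree of freedom. It called no gene of the set and 0% of all features at an adjusted p under 0.05. At a raw p under 0.05 it gave 20 of 36 genes (55.6%), each more negative in BC1, against 17.8% of all features. The largest differences were -1.57 ± 0.21 for NOP16, -1.27 ± 0.20 for MRTO4, -1.21 ± 0.22 for NOLC1 and -1.18 ± 0.34 for RRP9 (SE, log2 scale, limma adjusted p of 0.231 to 0.246). In the deposited table RRP9, a dim probe, had -0.43, smaller in size than LYAR at -0.91 and RRS1 at -0.81. In the deposited table the same test called 23 of 36 genes (63.9%), all more negative in BC1, against 15.4% of all features. That table differs from the main values in both background subtraction and normalization. The residual in this test is the difference between BCP1 and BCBL1, moderated by a prior over all features with 2.85 degrees of freedom. These lines had much the same profile, so the residual may understate the variation between lines.

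Without BC1 the genes were still mostly lower. The median log2 fold change was then -0.24, against -0.01 over all features, with 32 of 36 genes negative. At a raw p under 0.05, 8 genes were lower, against 13.7% of all features. Without BCBL1 the median was -0.59 and 17 genes were lower at a raw p under 0.05, against 7.42% of all features. Without BCP1 it was -0.60 and 19 genes, against 7.87% of all features.

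The third comparison asked whether the levels of these genes differed between lines. The F test over lines called 6 of 36 genes (16.7%), close to the 20.3% of all features, and 16 in the deposited table, where 29.6% of all features passed. The H/ACA gene GAR1 had a mean log2 signal of 11.71 in BC1, 12.64 in BCBL1 and 12.63 in BCP1. RRS1, RRP12, POLR1B and TSR1 were likewise lower in BC1 than in the other lines, with RRS1 at 9.52 in BC1, 11.07 in BCBL1 and 10.98 in BCP1. On the vehicle arrays alone RRS1 had 10.15 in BC1, 11.21 in BCBL1 and 11.11 in BCP1, a smaller gap. UBTF was higher in BC1, at 7.59, than in BCBL1 (6.64) and BCP1 (6.67).

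The fourth comparison set other genes of the pathway beside the set, from lists written with earlier results of these data known. None of their members passed the limma test over all features in the main values. With the deposited values, 3 small subunit processome (6.98%), 4 large subunit (9.52%), 1 polymerase I (9.09%) and 1 snoRNA particle assembly gene (10%) passed. In addition, 1 ribosomal protein gene (1.49%) and 0 exosome genes passed. All those calls were lower, and 3.76% of all features were called lower. Other small subunit processome genes numbered 43, of which 39 were negative (90.7%, against 51.2% of all features), and their median log2 fold change was -0.24. At a raw p under 0.05, 15 were lower (34.9%, against 12.2% of all features) and 0 higher. TBL3 (-0.89 ± 0.15, SE), NOL11 (-0.54 ± 0.13), UTP15 (-0.59 ± 0.16) and PNO1 (-0.48 ± 0.14) had the smallest raw p among them. TBL3 had its smallest log2 fold change in BC1, -0.58, against -1.06 in BCBL1 and -1.02 in BCP1, and its mean was -0.34 in the deposited table.

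Other large subunit assembly genes had a median of -0.17 over 42 genes, 34 negative (81.0%, against 51.2% of all features). At a raw p under 0.05, 9 were lower (21.4%, against 12.2% of all features) and 0 higher. NLE1 had -0.84 ± 0.13, RPF1 -0.55 ± 0.13, BRIX1 -0.50 ± 0.13 and MYBBP1A, a nucleolar protein that binds MYB, -0.61 ± 0.17 (log2 fold change ± SE). In the deposited table NLE1 had -0.40 and MYBBP1A -0.30. The RNA exosome, which trims rRNA precursors, had a median of -0.24 over 13 genes, and EXOSC7, EXOSC8, MTREX and EXOSC2 were lower at a raw p under 0.05 (30.8%, against 12.2% of all features). Genes of snoRNA particle assembly also had a median of -0.24, over 10 genes, with NUFIP1 at -0.47 (-0.20 in the deposited table) and PIH1D1 at -0.45.

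Other polymerase I genes had a median of -0.05 over 11 genes, at -0.23 in BC1, where 9 were negative, 0.03 in BCBL1 and 0.07 in BCP1. Named by smallest raw p were the selectivity factor subunit gene TAF1B at -0.62 ± 0.13 and POLR1F at -0.32 ± 0.12. The 67 measured genes for cytosolic ribosomal proteins, the products that these factors assemble, had a median of -0.02. At a raw p under 0.05, 5 were lower (7.46%, below the 12.2% of all features) and 0 higher. Their medians were -0.04 in BC1, -0.02 in BCBL1 and -0.03 in BCP1. RPL28 (-0.49 ± 0.14), RPL13 (-0.37 ± 0.12), RPL13A (-0.36 ± 0.12) and RPL23A (-0.31 ± 0.12) had the smallest raw p. Ribosomal protein genes have many processed pseudogenes, so their probes may also read near-identical copies. Some of their probes were also brighter than any of the set. RPS12 had a mean log2 signal of 14.67 in BCP1, against 13.51 for NOP10, the brightest of the set there. Whether brightness affects the size of the changes was not tested. The difference between the lists was not tested.

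**Figure D5:**
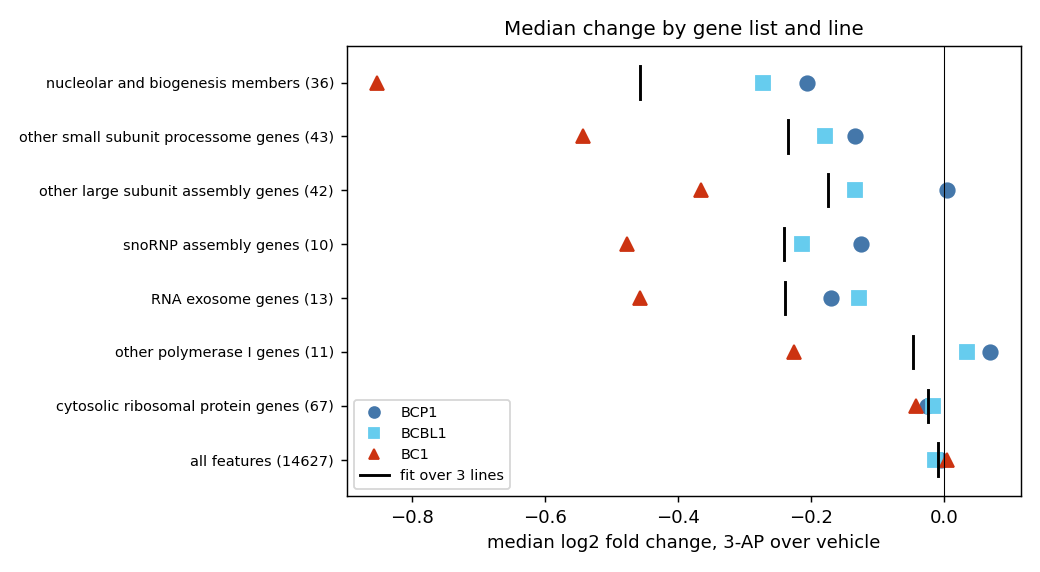
Median log2 fold change of 3-AP over vehicle for the 36 genes, 6 other lists of the pathway and all features, with the number of genes in brackets, 1 symbol per line and a black tick for the fit over 3 lines. The nucleolar and biogenesis genes reach -0.85 in BC1, while ribosomal protein genes and all features lie near 0 in every line.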

How the data were processed

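RNA of 3 cell lines with 3-AP or vehicle was measured on 6 bead arrays. The authors deposited linear signal intensity values in a processed and a non-normalized table, and the non-normalized one adds the detection p-value of each probe, as its headers show. How the arrays were normalized before being deposited is not given here. In the non-normalized table, 100% of the signals named for BCP1 equal processed BCBL1 values (within 0.051), so the processed table was used, and each BCP1 array took by rank the mean detection p-value profile of the other 4 arrays. Background was subtracted (limma nec, offset 16), signals were quantile normalized and log2 transformed. Both the rank step and the repeated normalization can change a value. Of 47323 probes, 13 with a signal of 0 were left out, and probes detected at a p under 0.05 on at least 3 arrays were kept (17987). Between 37.0% and 39.2% of probes were detected on the arrays with their own p-values, and 6 arrays limit the precision. Probes with 1 gene symbol (30113, against 8 with several and 17202 with none) were named, and the brightest kept probe stood for its gene. Tests used R 4.3.3 and limma 3.58.1 (lmFit, eBayes), two-sided, with line as a block, 2 residual and 3.20 prior degrees of freedom and Benjamini-Hochberg adjustment over 14627 features at 0.05.

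The pairing comes from the labels, since each pair is 1 line. Deviations from the group means correlated at 0.71 (BCP1), 0.76 (BCBL1) and 0.86 (BC1) within pairs and at 0.58 and 0.59 crossed between BCP1 and BCBL1. The fits were tested on simulated signals. The genes and lists were chosen with earlier results of these data known. Signals per array are given for the 12 genes with the smallest raw p, the 4 with the highest log2 fold change and the 4 with the largest difference in BC1, and other lists by up to 4 genes with the smallest raw p. Alternatives are given at the end.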

Additional observations from a re-analysis of the deposited data

Results flagged for a closer look

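In 6 of the 36 genes the lines moved in opposite directions between 3-AP and vehicle, with 1 pair of arrays per line, so these differences were not tested. The gap between the highest and the lowest log2 fold change over lines was 1.05 for PES1, 1.03 for WDR74, 0.72 for BOP1, 0.62 for NOP14, 0.57 for UTP14A and 0.18 for NOP10. PES1, BOP1, NOP14 and UTP14A were lower in BC1, at -1.03, -0.70, -0.56 and -0.43, and slightly higher in BCP1, at 0.02, 0.02, 0.07 and 0.14. WDR74 was higher in BCBL1, at 1.01, while BCP1 had -0.03. NOP10 had -0.04 in BCBL1 and 0.14 in BC1. The other NOP14 probe, detected on all 6 arrays, was lower in every line, at -0.37 in BCP1, -0.05 in BCBL1 and -0.85 in BC1, so the opposite sign of NOP14 rests on 1 probe. The other NOP10 probe had 0.04 in BCBL1.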

How the results depend on the processing

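The median log2 fold change of the 36 genes stayed negative in all 13 alternatives, between -0.61 (non-normalized signals of BCBL1 and BC1) and -0.24 (without BC1), and was -0.41 in the deposited table. The number of genes of the set past the threshold was 0 and became 5 in the deposited table, 6 with a variance trend, and 1, NCL, with a background offset of 50, with the strict detection filter and with the line as random block. All those calls were lower. It stayed 0 without each line. Features past the threshold numbered 50, and became 1148 in the deposited table, 1252 with a variance trend, 654 with the strict filter, 650 with offset 50, 447 with the random block, 21 with the non-normalized signals, 10 with no detection filter, 10 when the pairing was dropped (no replicate block, with 0 genes of the set past it), and 3 to 36 leaving out a line. The test of the BC1 response called 0 features and 0 genes of the set. It called 2252 and 23 in the deposited table, 2235 and 28 with a variance trend, 752 and 11 with the strict filter, and 131 and 2 with offset 50. Between lines 6 genes of the set passed, and 16 in the deposited table, 15 with a variance trend, 11 with offset 50 and 1 with no detection filter. Features passing between lines numbered 2962 in the main values, and 4329, 4238, 3813 and 2476 in those settings. Of 466 log2 fold changes of single genes, 2 changed sign, both without BC1, leaving a range over left-out lines of -0.30 to 0.010 for NOP14 and -0.24 to 0.043 for UTP14A. Of 250 BC1 terms 1 did, TSR1 at 0.023 with the mean of all kept probes, whose second probe is dim. The BC1 term could not be fitted without a line. The causes were not tested. PPAN, a dim probe, had -0.89 in the main values and -0.38 in the deposited table, which differs in both background subtraction and normalization.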

Other observations

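The share of genes with CACGTG in a promoter window varied between the lists. It was 47.1% in the set, 36.1% of 36 other small subunit processome genes, 31.0% of 42 other large subunit assembly genes and 10.0% of 10 other polymerase I genes. It was 8.33% of 12 RNA exosome genes, 6.45% of 62 ribosomal protein genes and 0 of 7 snoRNA particle assembly genes, against 8.77% of all genes with a window. The median log2 fold change was -0.24 in each of the exosome, snoRNA particle assembly and other small subunit lists. A link between the shares and the fold changes was not tested. These shares are descriptions, and base composition was not matched.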
